A study of Mus musculus with 3 samples.

Results

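The 34 genes described here encode the machinery that copies and divides a cell's DNA, and they were followed across the cell types of a Cd11b sort from adult mouse brain. They were taken by symbol from the gene list of a single-cell RNA count matrix, where all 34 of 27998 genes were found. By role, 12 act in DNA replication, 20 act in mitosis and 2 (Stmn1 and H2afz) are broadly expressed genes whose transcripts increase in dividing cells. The study compared microglia of untreated mice with microglia left after inhibition of Csf1r, the receptor that microglia need to survive, and with the first cells seen once the inhibitor was withdrawn.

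The Ctrl sample came from 1 untreated mouse. The D0 sample pooled 2 mice that had eaten only a diet with PLX5622, an oral Csf1r inhibitor, at 1200 mg per kg for 14 days. The D2 sample came from 1 mouse given the same diet for 14 days and then control diet for 2 days. All mice were C57BL6J females of 5 months. Each brain, without its cerebellum, was digested with enzymes, cleared of myelin and sorted for Cd11b (Itgam), a surface integrin shared by microglia, monocytes, neutrophils, NK cells and many dendritic cells. Since each condition is a single library from 1 mouse or 1 pool, nothing measures the spread between animals. According to the protocol in the labels 4 samples were processed in parallel; 3 of them are described here.

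The matrix holds 2149 cell barcodes, which carry the suffix 1, 2 or 3, and nothing in the sources used here ties a suffix to 1 of the 3 conditions. Cells are therefore grouped as libraries 1, 2 and 3 (1261, 594 and 280 cells used), no value below is assigned to a treatment, and no test is made. No barcode sequence was shared between libraries. The sums over a library's barcodes were 6410990, 4022293 and 2831118 unique molecular identifiers (UMIs, 1 for each captured transcript), and the median per cell was 3662, 6188 and 8172. Clusters were built without the 34 genes and without 189 other cell cycle genes, then named from marker genes. Of 2135 cells, 1165 were microglia-like, but only 64 of these lay in library 2 and 17 in library 3. The other named classes were 287 dendritic cell-like, 156 monocyte-like, 146 neutrophil-like, 125 NK-like, 86 non-classical monocyte-like, 83 border-associated macrophage-like and 59 migratory dendritic cell-like cells, and 28 cells in 3 small clusters stayed unnamed. Library 1 was mostly microglia-like (1084 cells), library 2 held most dendritic cell-like cells (178), and library 3 held 70 monocyte-like and 67 dendritic cell-like cells.

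A dividing cell first licenses its replication origins by loading the MCM helicase, then copies its DNA in S phase with the help of the sliding clamp PCNA and of enzymes that make nucleotides. It next enters mitosis under the kinase CDK1 and its cyclins, lines up its chromosomes on the spindle, and splits. Transcripts of the first set are driven largely by E2F factors, and those of the second by the DREAM and MuvB complexes with B-Myb and FoxM1, which act through CCAAT boxes and a short element called the cell cycle homology region (CHR). Adult microglia divide slowly in the undisturbed brain, and microglia that survive Csf1r inhibition are known to proliferate when the inhibitor is removed.

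The start regions of the replication and mitosis genes differed in the letters they held. RefSeq promoters on build GRCm38.p6, from 250 bases before to 50 bases from the transcript start on, were found for 27 of the 34 genes (11 of 12 replication genes, 16 of 20 mitosis genes and neither broad gene). CHR letters (TTTGAA or TTCGAA) stood in 13 of 16 mitosis genes (81.3%), in 2 of 11 replication genes (18.2%, Mcm2 and Mcm7) and in 21.7% of the 27025 genes in the table. E2F letters (TTTCCCGC, TTTGGCGC, TTTCGCGC or TTTGCCGC) stood in 5 of 11 replication genes (45.5%), in 2 of 16 mitosis genes (12.5%, Cdk1 and Cenpm) and in 2.6% of all genes. CCAAT stood in 9 of 11 replication genes (81.8%), 14 of 16 mitosis genes (87.5%) and 41.1% of all genes. Both strands were searched, matches of different motifs may overlap, and a match says only that the letters are present. Birc5, Nusap1, Tyms and Tk1 held none of the motif letters in this window. Not every MCM helicase gene showed the contrast: Mcm2 held CHR and no E2F letters, and Mcm7 held both. The 6 promoters that follow were picked as examples of the contrast, with 3 replication genes first (subunits of the MCM helicase). Then come 3 mitosis genes (the DNA-untangling topoisomerase Top2a, the kinase gene Cdk1 and its partner cyclin gene Ccnb2). Each is written 5′ to 3′ in the direction of the gene, and capitals mark every match to the CCAAT, CHR or E2F letters or to their reverse complements.
Mcm3, chr1:20820263-20820562, minus strand: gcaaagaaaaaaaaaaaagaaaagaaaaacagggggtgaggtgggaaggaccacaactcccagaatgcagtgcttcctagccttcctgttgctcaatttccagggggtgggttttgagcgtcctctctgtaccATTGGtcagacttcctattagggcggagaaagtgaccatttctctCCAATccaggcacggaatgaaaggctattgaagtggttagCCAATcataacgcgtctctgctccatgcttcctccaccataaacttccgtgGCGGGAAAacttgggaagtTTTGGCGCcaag
Mcm5, chr8:75109259-75109558, plus strand: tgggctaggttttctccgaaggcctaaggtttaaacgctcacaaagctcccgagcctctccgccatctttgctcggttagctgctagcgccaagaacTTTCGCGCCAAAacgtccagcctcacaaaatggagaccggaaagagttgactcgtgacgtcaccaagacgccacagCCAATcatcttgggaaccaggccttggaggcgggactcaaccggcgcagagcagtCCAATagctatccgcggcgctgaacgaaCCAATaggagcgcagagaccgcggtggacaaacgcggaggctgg
Mcm6, chr1:128359656-128359955, minus strand: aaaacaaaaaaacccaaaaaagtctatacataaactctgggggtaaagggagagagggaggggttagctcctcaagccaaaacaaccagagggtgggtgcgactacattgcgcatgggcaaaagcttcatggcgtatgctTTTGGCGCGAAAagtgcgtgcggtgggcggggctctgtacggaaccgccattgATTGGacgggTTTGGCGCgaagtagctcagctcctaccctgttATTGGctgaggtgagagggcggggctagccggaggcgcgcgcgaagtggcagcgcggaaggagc
Top2a, chr11:99024140-99024439, minus strand: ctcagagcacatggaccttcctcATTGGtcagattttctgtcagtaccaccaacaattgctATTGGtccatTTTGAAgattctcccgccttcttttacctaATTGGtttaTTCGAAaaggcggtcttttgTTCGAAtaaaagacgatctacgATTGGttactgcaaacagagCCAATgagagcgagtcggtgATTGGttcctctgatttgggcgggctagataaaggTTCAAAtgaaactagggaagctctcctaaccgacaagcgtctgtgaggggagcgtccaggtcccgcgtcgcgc
Cdk1, chr10:69352863-69353162, minus strand: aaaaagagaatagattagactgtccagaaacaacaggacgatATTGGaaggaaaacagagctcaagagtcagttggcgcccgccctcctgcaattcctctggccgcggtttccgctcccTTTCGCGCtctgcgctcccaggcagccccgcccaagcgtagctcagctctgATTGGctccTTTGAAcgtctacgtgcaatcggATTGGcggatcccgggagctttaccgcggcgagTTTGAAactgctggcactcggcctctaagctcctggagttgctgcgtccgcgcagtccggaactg
Ccnb2, chr9:70421505-70421804, minus strand: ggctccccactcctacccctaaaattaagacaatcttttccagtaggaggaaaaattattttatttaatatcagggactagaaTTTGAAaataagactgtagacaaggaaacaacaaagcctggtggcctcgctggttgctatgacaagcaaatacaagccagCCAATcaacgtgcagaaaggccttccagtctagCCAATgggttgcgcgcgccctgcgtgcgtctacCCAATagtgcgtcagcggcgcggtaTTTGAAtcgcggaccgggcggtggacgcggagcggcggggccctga

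Mcm3, Mcm5 and Mcm6 carried both E2F and CCAAT letters and no CHR letters. Top2a and Ccnb2 carried CCAAT and CHR letters and no E2F letters, while Cdk1 carried all 3 kinds.

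Over all cells, nearly every gene of the set was lowest in library 1 and highest in library 3. Here and below, a level is in CPM, the gene's UMIs for each 1000000 UMIs of the summed cells, not divided by gene length because each captured transcript gives 1 count, and every interval covers counting error only. The replication genes summed to 142 CPM (95% Poisson interval 133 to 152) in library 1, 260 (244 to 276) in library 2 and 696 (665 to 728) in library 3. The mitosis genes summed to 28.4 (24.5 to 32.9), 411 (392 to 432) and 1042 (1004 to 1081). The mitosis sum thus differed far more between library 1 and the others than the replication sum did. The libraries also differ in cell types and in depth, so these sums mix differences within a cell type with differences in which cells were present.

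**Figure D1:**
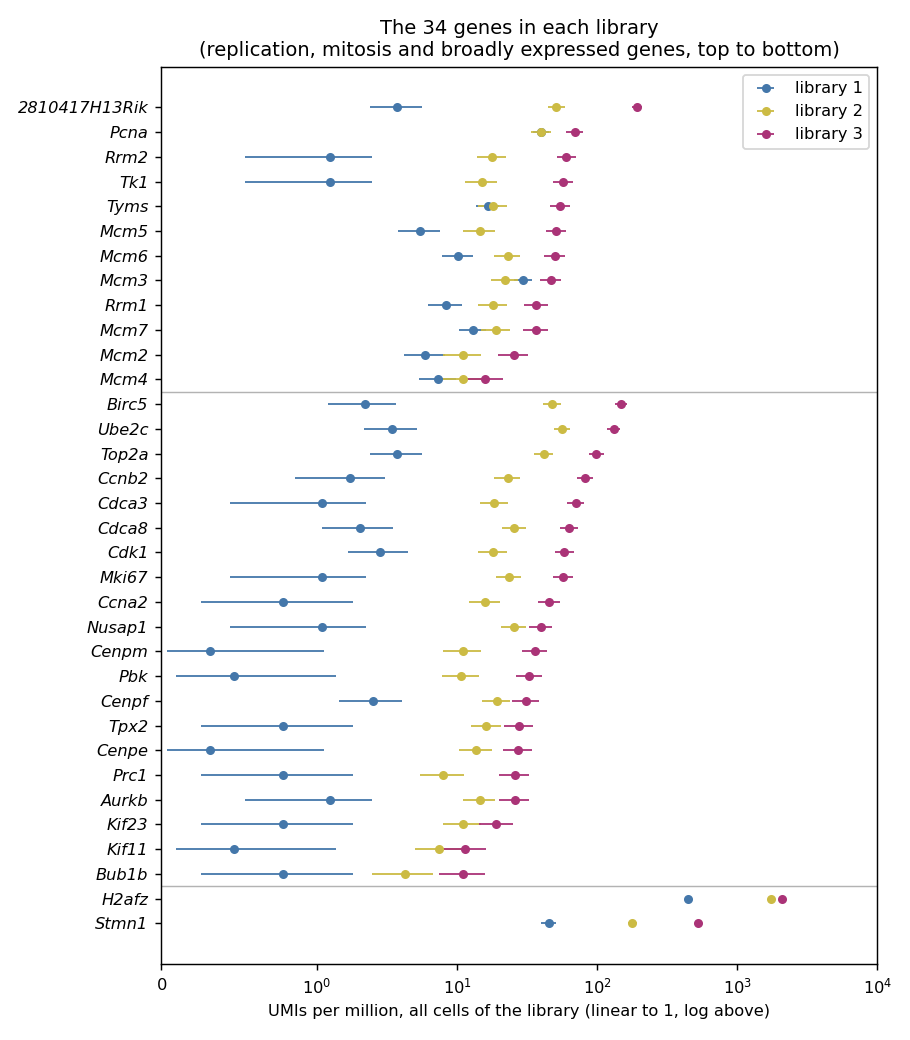
Level of each of the 34 genes in libraries 1, 2 and 3 (CPM over all cells of the library, on an axis that is linear to 1 and logarithmic above), with 95% Poisson intervals; replication, mitosis and broad genes are separated by lines. For 33 of the 34 genes the points run from library 1 through library 2 to library 3, and Mcm3 is the exception.

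Of the 34 genes, 33 stood in the order library 1, 2, 3. The intervals of libraries 3 and 2 were apart, with library 3 higher, for 11 of 12 replication genes (all but Mcm4), 18 of 20 mitosis genes and both broad genes. The intervals of libraries 2 and 1 were apart, with library 2 higher, for all 20 mitosis genes but only for 6 of the 12 replication genes. All 34 genes had over 50 UMIs in total, from 52 for Bub1b, a spindle checkpoint kinase, to 15489 for H2afz, a histone variant gene. Intervals were not adjusted for the number of genes. No share over all genes was computed beside these counts between whole libraries. The libraries differ in cell types, so the counts are descriptions and do not set these genes apart from others.

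Among the replication genes, 2810417H13Rik (annotated as Pclaf, whose product binds PCNA; GRCm38 chr9:65890237-65903266) had the widest range. Libraries 1, 2 and 3 held 24, 205 and 524 of its UMIs, or 3.75, 51.1 and 193 CPM. Rrm2, the regulated subunit of ribonucleotide reductase, had 1.25, 17.7 and 60.3 CPM, and Tk1, the S-phase thymidine kinase, had 1.25, 15 and 57.3 CPM. These 3 genes were close to absent in library 1, and no intervals overlapped among libraries. Pcna (chr2:132249162-132253314), the sliding clamp, behaved otherwise. It had 39.8 (35.1 to 45), 39.9 (34 to 46.6) and 69.1 CPM (59.6 to 79.7) in libraries 1, 2 and 3. Tyms, which makes thymidylate, likewise had 16.6, 18 and 54.4 CPM, so libraries 1 and 2 overlapped and library 3 lay above both.

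The 6 MCM helicase genes spanned these patterns. Mcm5 had 5.47, 14.5 and 51.1 CPM in libraries 1, 2 and 3, with all intervals apart. Mcm6 had 10.2, 23 and 50 CPM, also with all intervals apart. Mcm3 had 29.5, 22 and 46.7 CPM, the single gene with a lower value in library 2 than in library 1, though those 2 intervals overlapped (25.5 to 34 and 17.6 to 27.1). The other helicase subunits ran in order, with Mcm2 at 5.94, 11 and 25.4 CPM, Mcm4 at 7.34, 11 and 15.8 CPM and Mcm7 at 13, 19 and 36.4 CPM. Rrm1, the constant subunit of ribonucleotide reductase, had 8.28, 18 and 36.8 CPM. Its spread over libraries was narrower than that of its partner Rrm2.

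The mitosis genes were all scarce in library 1, from 0.312 CPM (Cenpe and Cenpm, 2 UMIs each) to 3.75 CPM (Top2a, 24 UMIs). Birc5, which encodes survivin of the chromosomal passenger complex (chr11:117849251-117855743), had 2.19 (1.20 to 3.67), 47.9 (41.4 to 55.2) and 148 CPM (134 to 163) in libraries 1, 2 and 3. Ube2c, the ubiquitin-conjugating enzyme of the anaphase-promoting complex, had 3.44, 55.9 and 131 CPM, and Top2a had 3.75, 41.7 and 98.5 CPM. These were the most abundant mitosis genes in libraries 2 and 3. Mki67, the gene of the usual stain for dividing cells, had 1.09, 23.5 and 57.3 CPM. The genes of the mitotic engine followed the same order, with Cdk1 at 2.81, 18 and 58.4 CPM, Ccnb2 at 1.72, 23 and 82 CPM and Ccna2, the cyclin of S phase and early mitosis, at 0.781, 15.7 and 45.6 CPM. The intervals of libraries 2 and 3 overlapped only for the spindle motor gene Kif11 (0.469, 7.49 and 11.4 CPM) and for Kif23, a motor gene of the midzone between dividing cells (0.781, 11 and 19.1 CPM).

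The remaining mitosis genes ran in the same order of libraries. The passenger complex genes Cdca8 and Aurkb had 2.03, 25.7 and 63.2 CPM and 1.25, 14.5 and 25.7 CPM. The kinetochore genes Cenpf, Cenpe and Cenpm had 2.50, 19.2 and 30.9 CPM, 0.312, 13.7 and 27.2 CPM, and 0.312, 11 and 36 CPM. The spindle genes Nusap1, Tpx2 and Prc1 had 1.09, 25.4 and 39.7 CPM, 0.781, 16.2 and 27.6 CPM, and 0.781, 7.98 and 25.7 CPM. In every case library 3 was higher than library 2, with intervals apart. Cdca3, a trigger of mitotic entry, had 1.09, 18.5 and 70.2 CPM, the mitotic kinase gene Pbk had 0.469, 10.7 and 32.7 CPM, and Bub1b had 0.781, 4.24 and 11 CPM.

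Both broad genes followed the same order. Stmn1, which encodes a protein that takes microtubules apart, had 45, 178 and 523 CPM. H2afz had 446, 1729 and 2097 CPM, the highest level of the set in each library.

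To ask which cells held these transcripts, all cells were brought to a depth of 2000 UMIs by drawing UMIs at random, which left out 106 shallower cells, and a cell was called cycling when it had UMIs of at least 3 of the 12 replication genes or of at least 3 of the 20 mitosis genes. By this call 92 of 2029 cells were cycling (4.53%). The share was 9 of 1190 (0.756%, exact Clopper-Pearson 95% interval 0.346 to 1.43) in library 1, 29 of 563 (5.15%, 3.48 to 7.31) in library 2 and 54 of 276 (19.6%, 15.1 to 24.7) in library 3. The 3 intervals do not overlap, in the same order as the gene levels. Without thinning, when deeper cells have more chances to reach 3 genes, the shares were 3.41%, 9.93% and 37.1%. Cycling cells were themselves deeper than the rest, with a median of 13045.5 UMIs before thinning against 4711.

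The replication genes and the mitosis genes were not equally tied to cycling cells. The 92 cycling cells made up 4.53% of cells and held 9.84% of all UMIs. When each gene was left out of the call in turn, the cycling cells held from 66.9% (Ccnb2) to 93.5% (Prc1) of the UMIs of the mitosis genes, with a median of 83.2%. For the replication genes the share ran from 25.9% (Mcm3) to 84.7% (2810417H13Rik), with a median of 47.6%. At the high end with 2810417H13Rik were Rrm2 (82.3%) and Tk1 (77.2%). At the low end with Mcm3 were Pcna (27.5%), Mcm4 (27.8%), Mcm6 (28.6%) and Mcm2 (30.4%), while Mcm5 (46.7%), Tyms (48.4%), Mcm7 (49.2%) and Rrm1 (49.8%) lay between. Since the genes are expressed together, leaving out 1 gene does not make the call independent of it, and these shares are descriptions.

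**Figure D2:**
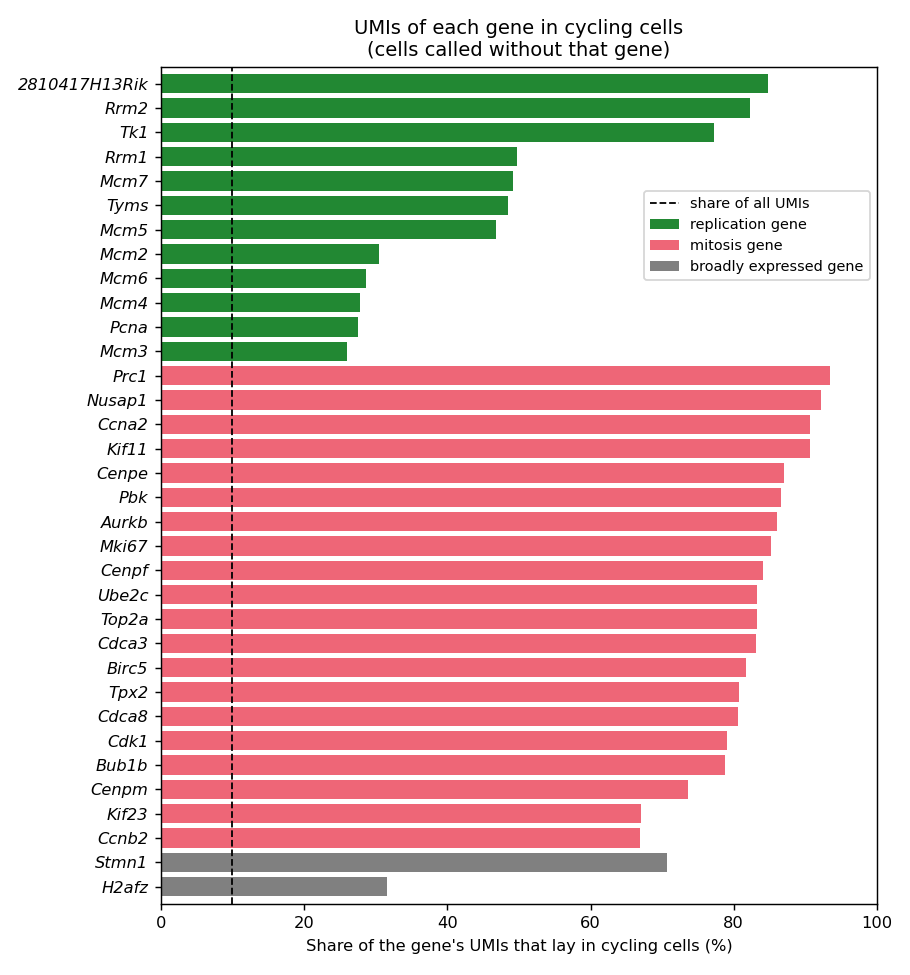
Share of each gene's UMIs (%) that lay in cycling cells, when cycling cells were called without that gene; green bars are replication genes, red bars mitosis genes and grey bars broad genes, and the dashed line is the 9.84% of all UMIs that cycling cells held. All 20 mitosis bars lie at 66.9% or more, while 5 of the 12 replication bars, led downwards by Mcm3 at 25.9%, lie at 30.4% or less.

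In cells not called cycling, Pcna still had 36.9 CPM, against 133 CPM in cycling cells, and Mcm3 had 25.4 against 84.6 CPM. These were differences of only a few-fold. By contrast 2810417H13Rik had 9.82 CPM against 519 CPM, Birc5 had 9.47 against 410 CPM, Ube2c had 8.64 against 402 CPM and Top2a had 6.56 against 320 CPM. Prc1, which bundles the microtubules between separating chromosomes, had 0.600 against 78.9 CPM. Of the broad genes, Stmn1 had 70.6% of its UMIs in cycling cells and H2afz 31.5%. Transcripts of 2810417H13Rik, Rrm2, Tk1, Stmn1 and the mitosis genes therefore lay mostly inside the call. Those of H2afz and of all other replication genes lay mostly in cells outside it, though only narrowly for Mcm5, Tyms, Mcm7 and Rrm1.

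The balance of the 2 lists also varied with library and cell class. Over all cells, the ratio of the mitosis sum to the replication sum was 0.200 (0.169 to 0.234) in library 1, 1.58 (1.46 to 1.71) in library 2 and 1.5 (1.41 to 1.59) in library 3. The ratios of libraries 2 and 3 overlapped although their sums differed by over 2-fold. Of the 92 cycling cells, 28 (30.4%) were positive for replication genes only, 26 (28.3%) for both lists and 38 (41.3%) for mitosis genes only. In library 1, 8 of the 9 cycling cells were positive for replication genes only. The corresponding counts for replication only, both and mitosis only were 6, 11 and 12 in library 2 and 14, 15 and 25 in library 3.

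**Figure D3:**
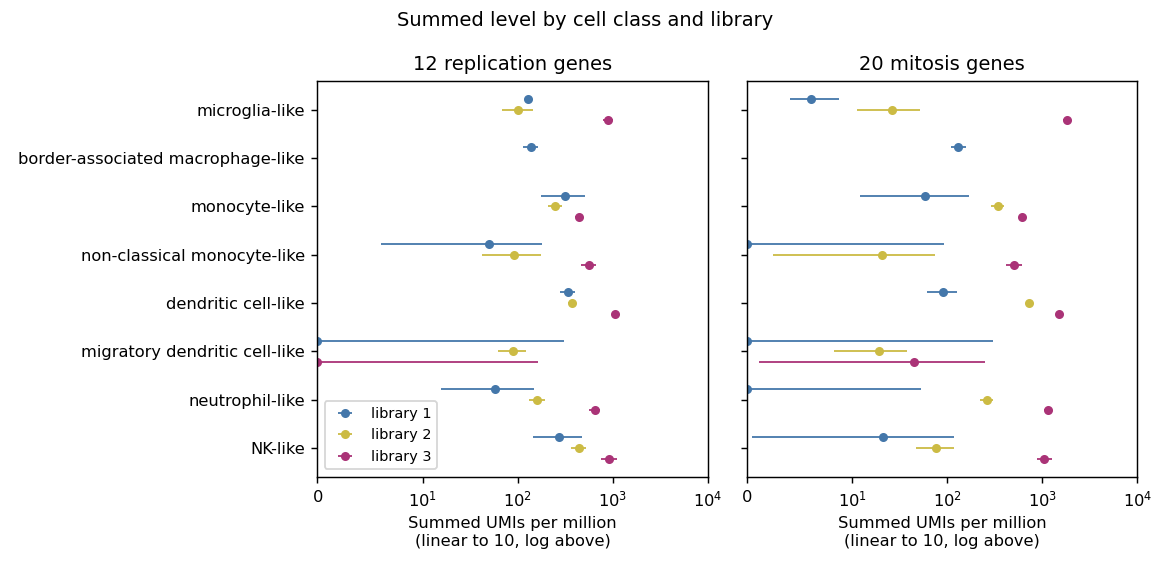
Summed level of the 12 replication genes (left) and the 20 mitosis genes (right) by cell class and library, in CPM on an axis that is linear to 10 and logarithmic above, with 95% Poisson intervals. In microglia-like cells the replication sum was 128 in library 1 and 892 in library 3, while the mitosis sum was 6.12 and 1803.

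In the microglia-like cells of library 1, replication transcripts were present and mitosis transcripts were nearly absent. Their 1084 cells held 628 replication UMIs (128 CPM, 118 to 138) and 30 mitosis UMIs (6.12 CPM, 4.13 to 8.73), a ratio of 0.0478 (0.0320 to 0.0689). All 12 replication genes had UMIs, led by Pcna at 38.3 CPM, Mcm3 at 29.6 CPM and Tyms at 16.3 CPM. Of the 20 mitosis genes, 8 had no UMI, among them Top2a, for which 3 counts would give 0.612 CPM, and the other 12 lay at 1.43 CPM or less. By the cycling call, 5 of 1017 cells (0.492%, 0.160 to 1.14) passed, all on replication genes alone. Without thinning 25 of 1084 cells passed (2.31%), and the share was 0% when cells were thinned to 1000 UMIs and 1.83% at 4000 UMIs. For mitosis genes 0 of 1017 passed at 2000 UMIs (3 cells would be 0.295%, and the exact interval reaches 0.362%).

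The 64 microglia-like cells of library 2 resembled those of library 1 in their replication sum but had a higher mitosis sum, at lower precision. Their replication sum was 101 CPM (68.7 to 144) and their mitosis sum 26.1 CPM (11.3 to 51.4, 8 UMIs), a ratio of 0.258 (0.102 to 0.574). Only Birc5 (9.79 CPM), Ube2c (6.53 CPM) and 3 more mitosis genes had any UMI. By the call 0 of 58 cells were cycling (3 cells would be 5.17%, and the exact interval reaches 6.16%). With cell cycle genes kept for clustering, a cluster of 79 cells led by such genes took the microglia-like name, and the share of library 2 was then 26.25% of 80 cells. Of the library 2 cells in that cluster, only 1 was microglia-like in the main classes. There 17 were dendritic cell-like, 2 monocyte-like and 2 neutrophil-like, so that share mostly counts cells of other classes. In the main classes, the mitosis interval of library 2 microglia-like cells lay above that of library 1, and the replication intervals overlapped.

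The 17 microglia-like cells of library 3 stood apart in both lists. Their replication sum was 892 CPM (789 to 1004) and their mitosis sum 1803 CPM (1655 to 1960; 552 UMIs), a ratio of 2.02 (1.75 to 2.35). All 34 genes had UMIs there. Ube2c had 0.408, 6.53 and 323 CPM in the microglia-like cells of libraries 1, 2 and 3, and Birc5 had 0.408, 9.79 and 300.4 CPM. Ccnb2 had 0.204 CPM, no UMI and 137 CPM, and Cdk1 had 1.43 CPM, no UMI and 121 CPM. Of the replication genes, 2810417H13Rik had 0.815 CPM, no UMI and 199 CPM, and Mcm5 had 3.67, 3.26 and 84.9 CPM. Pcna spanned the least, at 38.3, 32.6 and 68.6 CPM (42.5 to 105 in library 3). Stmn1 had 34.4, 39.2 and 777 CPM, and H2afz had 368, 421 and 2531 CPM.

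By the call, 11 of these 17 cells were cycling (64.7%, 38.3 to 85.8), 2 on replication genes only, 2 on both lists and 7 on mitosis genes only. The 11 cells had a median of 18611 UMIs and the other 6 a median of 19512.5, against 3542.5 UMIs in the non-cycling microglia-like cells of library 1. The call thins all cells to 2000 UMIs, and without thinning 16 of the 17 cells passed (94.1%). The class name of these 17 cells is fragile. Their cluster, shared with 176 cells of library 1 and 23 of library 2, was led by the cytokine and early response genes Il1a, Tnf, Ccl3 and Egr1. The microglia markers gave 7595 CPM in the 11 cycling cells and 10244 CPM in the other 6, against 36295 CPM in library 1 and 20013 CPM in library 2 microglia-like cells, and against 805 CPM in dendritic cell-like and 1549 CPM in monocyte-like cells of library 3. P2ry12 and Tmem119, homeostatic microglia genes, had 203 and 672 CPM in the 11 cells against 4917 and 3075 CPM in library 1. In single cells of these 11, microglia markers made up from 0.0647% to 1.82% of UMIs. The lowest share was in a cell of 29374 UMIs with UMIs of 19 mitosis genes, which was kept in the sums. All 10 microglia markers had a UMI in the 11 cells. The monocyte markers summed to 104 CPM there (Vcan and Ms4a4c at 0; 7669 CPM in monocyte-like cells of library 3), and the dendritic cell markers to 36.4 CPM (Cd209a, Flt3, Ifi205, Ciita and Cd7 at 0; 3355 CPM in dendritic cell-like cells of library 3).

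When the 9 cells called doublets were kept, 16 of these 17 cells moved to a cluster of 48 cells led by the choroid plexus and glial genes Ttr, Mt3 and Nnat, where 5 of 10 microglia markers passed the marker threshold, and only 1 microglia-like cell was left in library 3. Of the 16, 10 were cycling (62.5%). Ttr had 93.7 CPM in the 11 cycling cells against 88.5 and 79.3 CPM in monocyte-like and dendritic cell-like cells of library 3, and Mt3 and Nnat had no UMI in them. With cells named one by one from their own marker share, 15 of the 17 were microglia-like, 9 of them cycling (60%). Over library 3, 23 cells were named so, and 13 of them were cycling (56.5%, 34.5 to 76.8).

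**Figure D4:**
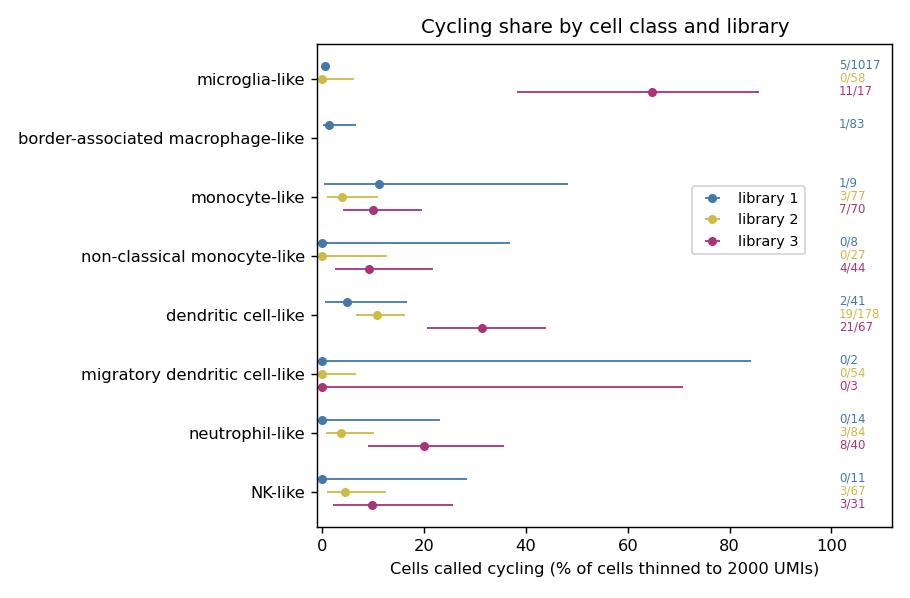
Share of cells called cycling (% of cells thinned to 2000 UMIs) by cell class and library, with exact 95% Clopper-Pearson intervals and the number of cycling and of all cells printed at the right. The microglia-like cells of library 3 (11 of 17) and the dendritic cell-like cells of library 3 (21 of 67) have the highest shares, and no migratory dendritic cell-like cell was cycling.

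The dendritic cell-like class held the most cycling cells, 42 of 286 (14.7%). These cells express Cd209a and MHC class II genes, and cells of this kind in tissue are replaced from dividing precursors. The share was 2 of 41 (4.88%) in library 1, 19 of 178 (10.7%, 6.55 to 16.2) in library 2 and 21 of 67 (31.3%, 20.6 to 43.8) in library 3, the last 2 with intervals apart. Without thinning the shares in libraries 2 and 3 were 18% and 55.2%. With cell cycle genes kept for clustering, 17 cells of library 2 and 16 of library 3 left the class for the cluster led by such genes, and the shares were 1.68% and 11.1%. The replication sum was 336, 369 and 1046 CPM in libraries 1, 2 and 3, and the mitosis sum was 89.4 (61.5 to 126), 726 (685 to 768) and 1482 (1395 to 1573) CPM. The ratio of mitosis to replication was 0.266, 1.96 (1.78 to 2.17) and 1.42 (1.29 to 1.56). Library 2 thus had the higher ratio, with intervals apart, although library 3 had the higher sums. With cell cycle genes kept for clustering, the ratios of libraries 2 and 3 fell below 1, to 0.333 (0.261 to 0.422) and 0.327 (0.257 to 0.412), with overlapping intervals. Of the 42 cycling cells, 9 were positive for replication genes only, 18 for both and 15 for mitosis genes only.

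Within this class, 18 of the 29 genes with at least 50 UMIs were over 2-fold higher in library 3 than in library 2 with intervals apart, and none was lower. The count was 4 when cell cycle genes were kept for clustering. Over all 4086 genes tested the same way, 4.58% were higher and 1.84% lower. The median ratio of library 3 to library 2 was 2.74 for 10 replication genes, 2.12 for 17 mitosis genes and 1.11 for all genes. The 5 genes under 50 UMIs were not compared. The gene 2810417H13Rik had 37.9, 89.6 (75.6 to 105) and 295 CPM (257 to 337) in libraries 1, 2 and 3. Tk1 had 5.42, 25.9 and 101 CPM and Mcm5 had 21.7, 21 and 83.4 CPM, among the widest contrasts of library 3 with library 2. Pcna had 48.7, 42.6 (33.2 to 53.9) and 95.7 CPM (74.6 to 121), so that the clamp gene also differed inside the class. The other replication genes called higher were Mcm3 (64.3 against 29 CPM), Mcm6 (86.1 against 31.5 CPM), Mcm7 (64.3 against 23.5 CPM), Rrm2 (86.1 against 35.2 CPM) and Tyms (68.4 against 24.1 CPM). Rrm1, at 41 against 27.8 CPM, was not.

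Fewer of the mitosis genes passed, 8 of 17. Birc5 had 5.42, 85.2 (71.6 to 101) and 206 CPM (175 to 242) in libraries 1, 2 and 3, and Ccnb2 had no UMI (3 counts would give 8.12 CPM), 37.1 and 115 CPM. Top2a had 29.8, 71.6 and 154 CPM. The others called were Cdk1 (73.8 against 30.9 CPM), Ccna2 (58.8 against 27.8 CPM), Cdca8 (104 against 46.9 CPM), Cdca3 (93 against 33.4 CPM) and Pbk (47.9 against 21.6 CPM). Ube2c (154 against 92.6 CPM), Nusap1 (90.2 against 49.4 CPM), Mki67 (65.6 against 39.5 CPM) and Cenpf (38.3 against 35.8 CPM) did not pass the 2-fold limit. Stmn1 was called (135, 303 and 764 CPM) and H2afz was not (1151, 2165 and 2864 CPM).

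Monocyte-like cells had lower levels of both sums than dendritic cell-like cells in libraries 2 and 3, with intervals apart. Their cycling share was 3 of 77 (3.90%, 0.811 to 11) in library 2 and 7 of 70 (10%, 4.12 to 19.5) in library 3, with overlapping intervals, and 30 of 70 in library 3 without thinning (42.9%). With cell cycle genes kept for clustering the shares were 0% and 1.75%. In libraries 2 and 3 the replication sum was 246 (206 to 291) and 438 CPM (396 to 483), and the mitosis sum 337 (290 to 390) and 614 CPM (565 to 667). Both sums were higher in library 3 with intervals apart, by less than 2-fold. Only 9 of the 34 genes had enough UMIs to compare. Of these, Ccnb2 (68.9 against 20.2 CPM), Birc5 (85.3 against 36.6 CPM) and Stmn1 (267 against 119 CPM) were higher in library 3 and none was lower, beside 4.41% higher and 3.79% lower among 3242 genes. The count of 3 moved with how the cells were filtered and clustered, to 9 with at least 1000 genes per cell or Leiden resolution 1.0 and to 1 with cell cycle genes kept for clustering. The most abundant replication gene, 2810417H13Rik, had 56.8 and 106 CPM, which did not pass the 2-fold limit.

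The other classes showed cycling cells in unequal measure. Among neutrophil-like cells, 3 of 84 in library 2 (3.57%) and 8 of 40 in library 3 (20%, 9.05 to 35.6) were cycling, and the mitosis sum was 258 and 1153 CPM. Mature neutrophils do not divide, and this class was meant to show the background of the call. Its leading genes, however, were Camp and Ngp, which are on the list of neutrophil precursor markers. With these genes and its cycling cells, the class gave no such background. Neutrophil markers made up a median of 1.94% of the UMIs of the 11 cycling cells (0.264 to 33.3) and 8.63% of those of the 127 other neutrophil-like cells (0.292 to 55.3). In 3 of the 11 microglia markers made up at least 0.3%. Only 1 of the 11 had at least 0.3% of its UMIs from neutrophil precursor markers. Migratory dendritic cell-like cells, chosen as a low class after their values were seen, had 0 cycling cells of 59 (3 cells would be 5.08%). Without thinning, 3 of the 54 in library 2 passed (5.56%, 1.16 to 15.4), all on replication genes. The median depth of the class was 7126 UMIs, close to the 8763 of dendritic cell-like cells. In library 2 its replication sum was 88 CPM (62 to 121) and its mitosis sum 19 CPM (8.22 to 37.5), beside 369 and 726 CPM in dendritic cell-like cells of the same library. In the migratory cells Mki67 and 2810417H13Rik had no UMI (3 counts would give 6.59 CPM) and Birc5 had 1.

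The NK-like cells of library 2 held more replication than mitosis transcripts. Their replication sum was 436 CPM (359 to 523) and their mitosis sum 76.4 CPM (46.7 to 118), a ratio of 0.175 (0.103 to 0.284). In library 3 the sums were 913 and 1049 CPM, a ratio of 1.15 (0.872 to 1.51), but 2 of its 33 cells held 113 of the 116 mitosis UMIs and 85 of the 101 replication UMIs. Without these 2 mitosis-positive cells, left out after the values were seen, the sums were 170 (97.4 to 277) and 32 CPM (6.59 to 93.4), a ratio of 0.188 (0.035 to 0.655). The cells were left out for their mitosis genes, so the lower ratio follows from that choice. Library 2 had no mitosis-positive NK-like cell to leave out (79 cells kept), and no comparison with it is drawn from the lower ratio. All 6 cycling NK-like cells were positive for replication genes and 2 of them for mitosis genes as well. Pcna had 147 (59.1 to 303), 68.8 (40.8 to 109) and 99.5 CPM (49.6 to 178) in the NK-like cells of libraries 1, 2 and 3, from 7, 18 and 11 UMIs. In each library its interval overlapped that of dendritic cell-like cells, which had 48.7, 42.6 and 95.7 CPM. Non-classical monocyte-like cells had 4 cycling cells of 44 (9.09%) in library 3 and 0 of 27 in library 2 (3 cells would be 11.1%, and the exact interval reaches 12.8%). Border-associated macrophage-like cells, found only in library 1, had 1 cycling cell of 83 (1.20%), with sums of 137 CPM for replication and 131 CPM for mitosis. That 1 cell, with 26979 UMIs, held 95 of the 115 mitosis UMIs of the class. Without it, a choice made after the values were seen, the mitosis sum was 23.4 CPM (14.3 to 36.2) and the replication sum 125 CPM (103 to 151).

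Cells with transcripts of more than 1 cell type were counted, since 2 cells in 1 droplet could mix a cycling cell with another type. At least 0.3% of UMIs from 2 or more of 7 marker lists were found in 4 of 29 cycling and 135 of 534 other cells of library 2, and in 14 of 54 cycling (25.9%) and 87 of 222 other cells (39.2%) of library 3. In both libraries the intervals of cycling and other cells overlapped. Library 1 had 0 of 9 cycling cells (the exact interval reaches 33.6%) and 78 of 1181 other cells (6.60%). Over all libraries the counts were 18 of 92 (19.6%) and 300 of 1937 (15.5%). The share in cycling cells was thus lower in each library but higher in the pool, where library 1 held 1181 of the 1937 other cells.

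Other cell cycle genes were compared between the 42 cycling and the 244 other dendritic cell-like cells, after thinning. The cells were chosen by 32 of the 34 genes, whose own ratios are therefore no result, and the lists of other genes follow standard roles. Of 189 further cell cycle genes, only 25 had at least 50 UMIs, and 16 of these were over 2-fold higher in cycling cells with intervals apart, none lower. The 50 UMIs were counted over both kinds of cell, so a gene scarce elsewhere could enter through the cycling cells. The share called among tested genes therefore does not speak for the whole list. With cell cycle genes kept for clustering 6 were called. Among all 1291 genes tested, 4.49% were higher and 3.41% lower. The median ratio was 3.36 for the 25 genes and 0.999 for all genes.

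The genes called were chiefly chromatin and tubulin genes, 11 of 11 tested. Tubb5, a beta-tubulin gene, had 2571 CPM (2240 to 2938) in cycling cells and 262 CPM (219 to 312) in the others. Hmgb2, a DNA-bending chromatin protein gene, had 2274 and 219 CPM, Tuba1b, an alpha-tubulin gene, 2369 and 299 CPM, and Hmgb1 1452 and 432 CPM. Of the 2 broad members, which took no part in the call, Stmn1 had 1679 CPM (1413 to 1980) against 71.7 CPM (50 to 99.7), and H2afz had 4810 against 1525 CPM. Cks1b and Cks2, small partners of cyclin-dependent kinases, had 643 against 28.7 CPM and 369 against 71.7 CPM. Slbp, which binds histone mRNA, had 250 against 67.6 CPM, and Lmnb1, a nuclear lamina gene, 250 against 59.4 CPM. The replication-dependent histone gene Hist1h2ap had 560 against 12.3 CPM, but near-identical histone genes may share its reads. In library 3, the only library with at least 20 cycling cells of the class, 2 genes outside the lists were called. Ptma, a chromatin-associated acidic protein gene, had 5905 against 2533 CPM there, and Calm2, a calmodulin gene, 714 against 239 CPM.

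After thinning, only 4 of 24 listed entry genes and 4 of 12 listed brake genes had enough UMIs to be tested. None of these was called, with median ratios of 1.09 and 1.10. The D-type cyclins, which couple growth signals to the cycle, had 286 against 160 CPM (Ccnd3), 167 against 203 CPM (Ccnd1) and 95.2 against 125 CPM (Ccnd2). Cdk4, their kinase partner, had 119 against 88.1 CPM. Of the brakes, Btg2 had 1345 against 1633 CPM, Btg1 940 against 1297 CPM and Cdkn1a, which encodes the inhibitor p21, 619 against 449 CPM. Within single libraries the calls among other cell cycle genes were 8 of 14 in library 2, beside 3.83% of all genes, and 5 of 9 in library 3, beside 2.41%, and all of these were chromatin and tubulin genes.

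**Figure D5:**
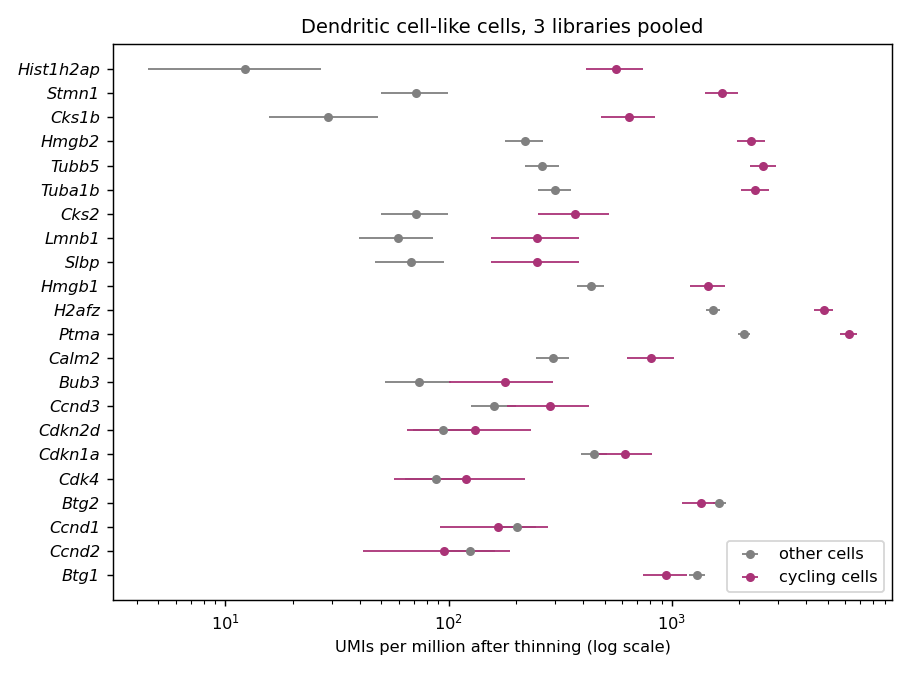
Level of named genes in cycling (magenta) and other (grey) dendritic cell-like cells, all libraries pooled and cells thinned to 2000 UMIs, in CPM on a logarithmic axis with 95% Poisson intervals. Hist1h2ap, Stmn1, Cks1b, Hmgb2 and Tubb5 lie far apart in the 2 kinds of cell, while the cyclins Ccnd1 and Ccnd2 and the brake genes Btg1 and Cdkn1a lie within 2-fold.

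With all UMIs of the same cells in place of thinned ones, 76 of the 189 genes could be compared and 58 were higher, beside 5.82% of all genes, with none lower, beside 2.41%. Cycling cells then carried more depth than the others (medians of 13045.5 and 8105.5 UMIs). Only 12 of the 53 listed kinetochore and spindle genes could be tested, and all 12 were called. Among them were Cenpa, the centromere histone gene (237 against 28.3 CPM), and Smc2 of the condensin complex (249 against 14.8 CPM). Here too, genes high in cycling cells could reach the UMI limit through those cells, so a full count of calls does not speak for the whole list. Of the origin and replisome genes 13 of 18 were called, among them Gmnn, the gene of the licensing inhibitor geminin (162 against 24.1 CPM). Of the nucleotide supply and chromatin copying genes 8 of 9 were called, among them Asf1b, a histone chaperone gene (185 against 8.35 CPM), and Dut, which keeps uracil out of DNA (196 against 38.9 CPM). The anaphase activator gene Cdc20 had 94.4 against 6.03 CPM. Of 6 entry genes only Cdk4 was called (169 against 80.2 CPM), and of 8 brake genes only Cdkn2c and Cdkn2d (175 against 83.9 CPM for Cdkn2d).

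Of the 24 entry genes listed, 10 had at least 50 UMIs in the microglia-like cells of libraries 1 and 3. Ccnd1, Ccnd3, Cdk4 and Cdk6 were over 2-fold higher in library 3 with intervals apart and Myc was lower, beside 11.1% higher and 14.9% lower among 7284 genes. Of 7 brake genes compared in the same way, Cdkn1a was higher and Cdkn1c, Btg1 and Btg2 were lower. Library 2 against library 1 gave 0 higher and 2 lower of 9 entry genes (Ccnd1 and Myc) and 2 higher and 0 lower of 7 brake genes (Cdkn1a and Cdkn2d), beside 1.7% higher and 6.16% lower among 7243 genes. The limits on the 17 cells of library 3 given above apply here.

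Ccnd1 had 105 CPM (96.5 to 115), 19.6 CPM (7.20 to 42.6) and 219 CPM (170 to 278) in libraries 1, 2 and 3. Cdkn1a had 62.8, 209 and 444 CPM, all with intervals apart. Btg2 had 1472, 1318 and 261 CPM, and Btg1 had 784, 747 and 212 CPM. Library 3 was thus highest for Ccnd1 and Cdkn1a and lowest for both Btg genes. Myc, a growth regulator, had 110 CPM (101 to 119), 45.7 CPM (25 to 76.6) and 16.3 CPM (5.30 to 38.1), so that libraries 2 and 3 overlapped. Library 3 had all 17 of its cells in 1 cluster, where library 1 had 176 of 1084 and library 2 had 23 of 64, so these values compare cells of different clusters. Inside that cluster, a comparison added after the data were seen, Ccnd1 had 102, 23.8 and 219 CPM, Btg2 1941, 1664 and 261 CPM, and Btg1 964, 974 and 212 CPM. Cdkn1a had 170, 368 (282 to 472) and 444 CPM (373 to 525) there, so that libraries 2 and 3 overlapped. In the cluster, 3 of 6 entry genes were higher in library 3 than in library 1 and 1 was lower, and 1 of 4 brake genes was higher and 2 were lower, beside 15.9% higher and 18.7% lower among 3736 genes. In dendritic cell-like cells the corresponding values were closer together, with Ccnd1 at 252, 195 and 242 CPM and Cdkn1a at 460, 550 and 373 CPM, while Btg2, at 1888, 1563 and 1127 CPM, was again lowest in library 3.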

How the data were processed

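The authors' deposited file is a matrix of UMI counts (whole numbers per gene and cell, not normalized) with its gene and barcode lists. Per the submitters' processing notes, Cell Ranger 2.0.1 and build mm10 were used; the gene annotation and the cell filter are not given in the sources used here. Cells with under 500 genes or over 10% mitochondrial counts were dropped (5 cells), and Scrublet, at an expected rate of 5%, called 9 of 2144 cells doublets (0.42%), which is too few to rely on; they were left out. Per-library sums were turned into CPM, with exact Poisson 95% intervals for sums and Clopper-Pearson intervals for shares. These cover counting error only, and beside a count of 0 stands the level that 3 counts would give. No p-value was computed, because each condition is 1 library.

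Clusters came from scanpy 1.11.5 (igraph 0.11.9, numpy 2.4.6, scipy 1.17.1) on 2000 variable genes without any cell cycle gene, with 30 components, 15 neighbours and Leiden resolution 0.5. A cluster was named when at least 3 markers of a type passed a threshold and its leading genes did not go against the name. A marker passed when it was found in a fraction of at least 0.3 of the cluster's cells. Its level also had to be at least 2-fold the median level over all clusters. Clusters under 50 cells stayed unnamed, a limit set after the data were seen. The members, their roles and the lists were chosen with earlier results of these data known. Trac, Ighm, Iglc2 and Mlf1ip were not analysed here. A gene was called between 2 sums at over 2-fold with intervals apart and at least 50 UMIs. Members with at least 50 UMIs were named in every library; from each further list, the 4 genes with the most UMIs in cycling cells; outside the lists, genes called in each library with at least 20 cycling cells. Genes named from all UMIs were chosen after their values were seen. Gene positions are from GENCODE on GRCm38, by gene identifier. The scripts were tested on simulated data. Alternatives covered the cell filter, doublets, cluster resolution, clustering genes, naming, thinning, the cycling threshold and each library left out; those on single cells and on 1 microglia-like cluster were added after the data were seen.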

Additional observations from a re-analysis of the deposited data

How the results depend on the processing

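No paired analysis was possible because each condition is 1 library, so its replicate number pairs nothing. Of 91 alternatives to the 8 main values 61 stayed close, 29 moved and 1 changed direction, and of 440 alternatives to 56 further values 287 stayed close, 144 moved and 9 changed direction. All 10 changes of direction were ratios of mitosis to replication that crossed 1. The clustering genes had the widest effect. With cell cycle genes kept, 79 cells formed a cluster led by such genes alone, 33 of them dendritic cell-like and 16 microglia-like before, and the dendritic cell-like cycling shares were 1.68% in library 2 and 11.1% in library 3, their ratio of mitosis to replication was 0.311 (0.333 in library 2 and 0.327 in library 3), the genes higher in library 3 numbered 4 and the other cell cycle genes called 6. Under the same setting all 79 cells of that cluster carried the microglia-like name. The ratio was then 2.70 in microglia-like cells of library 2, 1.58 in all microglia-like cells and 0.483 in monocyte-like cells of library 2. The other crossings were 0.3 in the 1 microglia-like cell of library 3 with doublets kept, 1.84 in microglia-like cells without library 1, and 0.680 and 0.714 in monocyte-like cells of library 2 with at most 5% mitochondrial counts and with cells named one by one. Without thinning, the cycling share was 2.31% (microglia-like, library 1), 94.1% (microglia-like, library 3), 18.0% and 55.2% (dendritic cell-like, libraries 2 and 3), the mitosis-positive share of cycling cells was 57.3% in place of 69.6%, and 62 other cell cycle genes were called (58 when only the test used all UMIs). Thinned to 1000 UMIs, the microglia-like share in library 1 was 0%, the dendritic cell-like share in library 3 was 17.9%, the mitosis-positive share was 83.3% and 10 genes were called; thinned to 4000 UMIs, the values were 1.83%, 45.5% and 28 genes. With 2 members in place of 3, the microglia-like share in library 1 was 2.65% and the mitosis-positive share 50.7%; with 4 members, 0% and 81.5%. With doublets kept, the microglia-like share in library 3 was 100% of 1 cell. The dendritic cell-like ratio, 1.54 in the pool, was 1.66 without library 1, 1.26 without library 2 and 1.67 without library 3, and 1.43 as a mean over cells. Without library 2, 6 other cell cycle genes were called, and without library 3, 8, in place of 16. The cause was not tested for the shifts with the clustering genes, the number of members or a left-out library. Depth limits the genes under 50 UMIs and any class with few cells, above all the 17 microglia-like cells of library 3.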
